A study of Mus musculus with 2 samples.

Results

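Kruppel-like factors are transcription factors that share 3 zinc fingers at their carboxyl end and bind GC-rich and CACCC-type DNA. The genes described here are Klf2, Klf3, Klf4, Klf6, Klf9, Klf10, Klf11, Klf12, Klf13 and Klf15, and a probe belonged to a gene where its RefSeq transcript identifier maps to that symbol. All 10 were found, each with 1 probe, among 16346 genes measured. Another 7 Klf genes on the array are given for comparison only. Total RNA from livers of male mice was pooled over 3 animals per group and hybridised to 1 Agilent Whole Mouse Genome array per group. The fasting group had been fasted overnight, for 16 h in one place of the sample labels and for 14 to 16 h in another. The labels describe the feeding group both as fed freely and as given nutrition after the fast. The study's methods give C57BL/6J mice of about 8 to 12 weeks on chow for its wild-type animals, and name no transgene, drug or time of day for these livers. The question was which hepatic genes respond to the intake of nutrients.

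With 1 array per group there is no replicate of either condition, so no p-value is given, and a difference is set only against the error of the measurement on the array. Signals are fluorescence intensities with the background subtracted, and changes are differences of quantile-normalized log2 signals, feeding minus fasting. The arrays came from the same scan, held 44397 spots each and had no saturated spot, and the share of transcript spots that were well above background was 63.1% for the fasting array and 72.3% for the feeding array. All 10 probes were well above background on both arrays, and none was an outlier spot. The spread of probes spotted 10 times, taken within each array, was used to set an SD for a log2 difference. It was 0.14 at middle signals, where 7 of the genes lie, and 0.09 at high signals, where Klf2, Klf10 and Klf15 lie. The scanner software's own error model gave a larger SD, 0.20 to 0.21, for the difference of each of the 10 genes. Neither covers the spread between mice, and the SD of replicate spots does not cover differences between arrays. The hepatocyte marker Alb had a normalized signal of 151264 upon fasting and 144433 upon feeding, a log2 change of -0.07, or 0.07 when the arrays were scaled to equal medians.

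As background, the family is usually divided by partner proteins. Klf3 and Klf12 recruit the corepressor CtBP, Klf9, Klf10, Klf11 and Klf13 recruit the corepressor Sin3, and Klf2, Klf4 and Klf6 act mostly as activators, while Klf15 stands apart from these groups. In liver, Klf15 is known for driving amino acid breakdown and gluconeogenesis in the fasted state, Klf10 responds to glucose and to the circadian clock, and Klf9 is induced by glucocorticoids and by thyroid hormone, the hormone the study is about.

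The sequences before the start sites of Klf9, Klf13, Klf11 and Klf15 are shown because the first 3 had the largest decreases upon feeding and Klf15 is the member best known for fasting liver. They are the 250 bases before the RefSeq start site in GRCm38.p6, written 5′ to 3′ on the strand of the gene, with capitals at every match to the motifs named after them.
Klf9 (chr19:23140976-23141225, plus strand): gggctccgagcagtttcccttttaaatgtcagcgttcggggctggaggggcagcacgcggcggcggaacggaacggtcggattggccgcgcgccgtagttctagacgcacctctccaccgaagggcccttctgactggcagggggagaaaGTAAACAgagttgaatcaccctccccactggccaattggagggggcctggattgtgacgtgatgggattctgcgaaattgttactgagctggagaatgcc
Klf13 (chr7:63938916-63939165, minus strand): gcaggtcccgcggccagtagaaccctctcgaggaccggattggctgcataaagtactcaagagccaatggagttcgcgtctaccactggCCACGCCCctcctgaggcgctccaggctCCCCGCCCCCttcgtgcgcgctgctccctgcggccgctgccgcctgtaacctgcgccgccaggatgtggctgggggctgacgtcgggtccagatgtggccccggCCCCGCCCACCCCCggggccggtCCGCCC
Klf11 (chr12:24651121-24651370, plus strand): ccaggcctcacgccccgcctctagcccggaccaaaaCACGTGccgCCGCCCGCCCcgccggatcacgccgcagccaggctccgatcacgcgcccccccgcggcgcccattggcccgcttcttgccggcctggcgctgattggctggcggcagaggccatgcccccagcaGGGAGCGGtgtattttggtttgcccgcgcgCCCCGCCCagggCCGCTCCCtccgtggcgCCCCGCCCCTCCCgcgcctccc
Klf15 (chr6:90462326-90462575, plus strand): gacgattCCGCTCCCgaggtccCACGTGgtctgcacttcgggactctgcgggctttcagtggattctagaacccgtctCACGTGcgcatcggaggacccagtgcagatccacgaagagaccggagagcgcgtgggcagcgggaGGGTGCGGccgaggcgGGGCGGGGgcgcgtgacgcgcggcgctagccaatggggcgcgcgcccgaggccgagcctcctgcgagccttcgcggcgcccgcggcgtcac
The motifs, searched on both strands, were the GC box GGGCGG, the CACCC-type box CCNCNCCC, which can overlap a GC box, the E-box CACGTG that clock factors bind, the core ACANNNTGT of the glucocorticoid response element, the cAMP response element TGACGTCA, the FoxO motif GTAAACA and the nuclear receptor half-site AGGTCA. Windows were found for 9 of the 10 genes, all but Klf10. A GC box was present in 7 of the 9 windows and in 32.7% of 32851 windows of all genes, and a CACCC-type box in 8 of 9 and in 45.9%. An E-box was present in 4 of 9, those of Klf4, Klf6, Klf11 and Klf15, and in 6.02% of all windows. The Klf15 window holds 2 E-boxes. The Klf9 window holds no GC box and no CACCC-type box, and it is the only one of the 9 with the FoxO motif, which 3.17% of all windows hold. The glucocorticoid core (5.84% of all windows), the cAMP element (1.55%) and the half-site (14.0%) were not in these 9 windows. The windows of the family are rich in G and C, with a median of 71.6% against 52.4% over all windows, so shares of GC-rich motifs are not comparable at equal composition. These are matches of letters and no measure of binding.

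Upon feeding, 9 of the 10 Kruppel-like factor genes had a lower signal than upon fasting, and Klf10 was the exception. At the 2-fold threshold of the study's methods, 5 were lower (Klf9, Klf13, Klf11, Klf4 and Klf2), 1 was higher (Klf10), and 4 were not past it (Klf15, Klf6, Klf3 and Klf12). Over all genes measured, 4.62% were at least 2-fold lower upon feeding and 3.27% at least 2-fold higher, 7.9% in all. Of the genes well above background on both arrays, 50.1% were lower by any amount. The median change of the 10 genes was -0.96 on the log2 scale, and that of all genes measured was 0.0. The 5 other Klf genes measured had a median of -0.19, with none past 2-fold. The 10 genes were chosen with earlier results of these data known, so their counts are only described. At 1.5-fold, 8 of the 10 were lower, against 10.6% of all genes. Under the normexp background correction, which adds an offset of 50 to every signal, only Klf9 and Klf13 were at least 2-fold lower, against 1.91% of all genes, and Klf10 was still at least 2-fold higher, against 1.32%. At 3-fold only Klf9 was lower, against 1.9% of all genes. In bulk liver RNA, fewer cells of a type and less RNA per cell cannot be told apart.

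**Figure D1:**
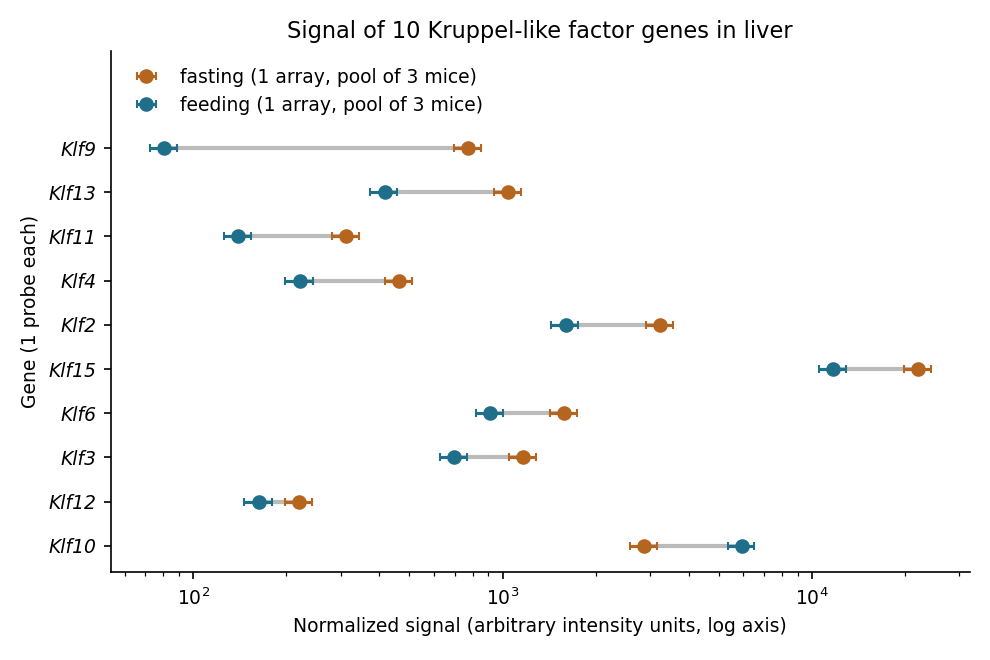
Normalized signal of the 10 genes, 1 row per gene ordered by change, on a logarithmic axis of intensity. Each point is 1 array of a pool of 3 mice, bars are the error of the scanner software's model, and only Klf10 has its feeding point to the right of its fasting point.

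Among the factors that bind Sin3, the largest difference was that of Klf9. The processed signal of its probe, for the transcript NM_010638, was 807 ± 80.7 (scanner error) upon fasting and 75 ± 7.61 upon feeding. After normalization Klf9 was 9.62-fold lower upon feeding, a log2 change of -3.27. The SD of replicate spots is 0.14 at its mean signal over both arrays, but its feeding signal alone lies among the dim genes, where that SD is 0.44, and the SD by the scanner's error model is 0.21. By size of decrease it ranked 33 among the 16346 genes. The size of this change depends on how the dim feeding signal is treated, since it was -2.13 under the normexp correction and between -3.32 and -3.19 under the other scalings, while it was past 2-fold under each of these. The local background at this spot was 44 upon fasting and 24 upon feeding.

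Klf13, a widely expressed factor first studied in T lymphocytes, followed with a signal of 1073 ± 107 upon fasting and 393 ± 39.3 upon feeding. It was 2.51-fold lower after normalization (-1.33), and it was past 2-fold under every scaling and correction tried, from -1.34 to -1.12. Klf11, which like Klf10 was first described as a gene induced by TGFβ, went from 331 ± 33.3 to 129 ± 13.0. Its log2 change was -1.16, or 2.24-fold lower, and -0.73 under the normexp correction, which is not past 2-fold.

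Klf10 belongs to the same group as Klf9, Klf11 and Klf13 and differed from fasting in the opposite direction. Its signal was 2913 ± 291 upon fasting and 5880 ± 588 upon feeding. This is 2.06-fold higher, a log2 change of 1.04, or 11.1 times the SD of replicate spots, and it ranked 468 by size of increase. The scanner's error model gives a larger SD, 0.20. The change was 1.04 to 1.25 under the 4 ways of processing, so Klf10 was past 2-fold in each of them. The 4 Sin3-binding factors thus ranged from -3.27 to 1.04.

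Klf15 was bright on both arrays, with a signal of 22275 ± 2228 upon fasting and 11682 ± 1168 upon feeding. Its log2 change was -0.91, or 1.87-fold lower upon feeding, just outside the 2-fold threshold and 9.62 times the SD of replicate spots. The scanner's error model gives a larger SD, 0.20. The change lay between -0.91 and -0.70 under the 4 ways of processing, so Klf15 was lower but not past 2-fold in any of them. Among all genes, 5.50% had a larger decrease. Of the 18 liver genes tied to Klf15 in amino acid breakdown and gluconeogenesis, all were measured, 3 were at least 2-fold lower and 0 higher, and their median change was -0.14 against 0.0 for all genes. When the arrays were instead scaled to equal medians, which moved the median of all genes to 0.09, that of this list was 0.03, and its sign thus turned. The 3 were the gluconeogenic genes Pck1 (-2.95) and G6pc (-1.77), and Sds (-1.72), the serine dehydratase gene. The urea cycle genes of the list ranged from -0.33 (Cps1) to -0.07 (Ass1, or 0.04 with equal medians), and the proline dehydrogenase gene Prodh differed by 0.37. The alanine aminotransferase genes differed in opposite directions, Gpt by 0.48 and Gpt2 by -0.72. The tyrosine aminotransferase gene Tat differed by -0.97, and by -1.02 under the normexp correction, where 4 genes of the list were at least 2-fold lower.

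**Figure D2:**
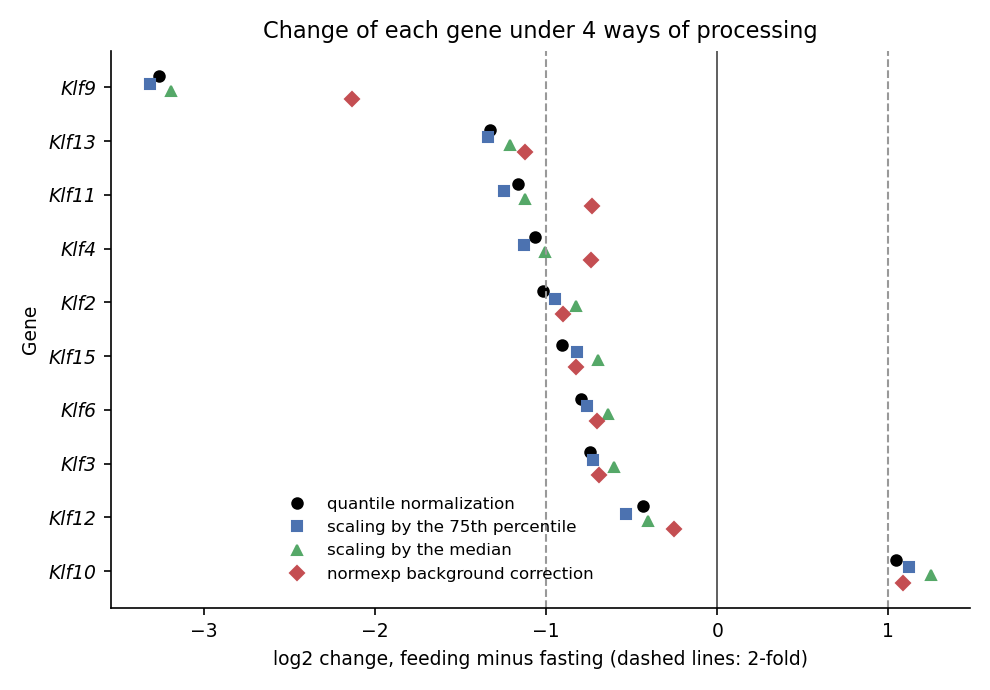
Log2 change of each gene, feeding minus fasting, under 4 ways of processing the same 2 arrays, with dashed lines at 2-fold. Each gene keeps its direction in all 4, and the normexp correction gives the smallest decrease for Klf9, Klf13, Klf11, Klf4 and Klf12.

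The activators were all lower upon feeding. Klf2, which in endothelium responds to blood flow and restrains inflammation, had a signal of 3283 ± 328 upon fasting and 1575 ± 157 upon feeding. Its log2 change was -1.02, just inside the threshold at 2.02-fold, and it was between -0.95 and -0.83 under the other scalings and the normexp correction, which leaves it outside. Klf4, a factor of endothelium and epithelia known for reprogramming cells to pluripotency, went from 489 ± 49.0 to 207 ± 20.7. It was 2.09-fold lower (-1.06), and its change was -0.74 under the normexp correction. Klf6, an early response gene known in hepatic stellate cells, went from 1608 ± 161 to 878 ± 87.8 and was 1.74-fold lower (-0.80), which is not past 2-fold.

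The factors that bind CtBP differed least. Klf3, known from erythroid and fat cells, went from 1192 ± 119 in the fasting pool to 667 ± 66.7 in the feeding pool, which is 1.68-fold lower (-0.74). Klf12 went from 236 ± 23.9 to 151 ± 15.2 and was 1.35-fold lower (-0.44). This is 3.20 times the SD of replicate spots, the smallest multiple among the 10 genes, and 2-fold was not reached under any processing. The scanner's error model gives a larger SD, 0.21, and the change was -0.25 under the normexp correction.

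Klf2 and Klf4 are best known from endothelium, and the markers of endothelial cells, macrophages and stellate cells had median changes below 0. Of 13 endothelial markers, all measured, 12 were lower by any amount, or 9 with equal medians. Of all genes measured, 45.2% were lower by any amount, or 35.2% with equal medians, where the median of all genes was 0.09. Pecam1 was past 2-fold (-1.04, but -0.98 with equal medians and -0.79 under the normexp correction). The median change of the endothelial markers was -0.31, or -0.14 with equal medians, and their summed normalized signal was 50810 upon fasting and 40442 upon feeding. Macrophage markers had a median of -0.44 over 10 genes, or -0.23 with equal medians, with 9 lower and 1 higher by any amount. The complement gene C1qa was past 2-fold (-1.68), while Adgre1 differed by -0.89 and Marco by 0.20. Their summed signal was 106920 and 79033. Stellate cell and fibroblast markers had a median of -0.54 over 11 genes, or -0.34 with equal medians, with 8 lower and 2 higher by any amount, Lrat (0.24) and Pdgfrb (0.17). Past 2-fold were Acta2 (-1.04, but -0.95 with equal medians and -0.81 under the normexp correction) and Rgs5. The latter was not well above background upon feeding, and its measured log2 difference was -2.51, or -0.42 under the normexp correction. The summed signal of the stellate cell and fibroblast markers was 61002 and 44042. Des, a defining stellate cell marker, was not well above background upon fasting. Hepatocyte markers had a median of -0.05 over 10 genes, and 0.13 with equal medians, with none past 2-fold. The part of these cell types in the lower Klf2, Klf4 and Klf6 signals was not tested. Of 9 measured endothelial genes tied to Klf2 and Klf4, 1 was at least 2-fold lower, Vcam1 (-2.02, but -1.25 as the mean of its probes), and 1 at least 2-fold higher, S1pr1 (1.82), with a median of -0.33. The thrombomodulin gene Thbd differed by -0.99.

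**Figure D3:**
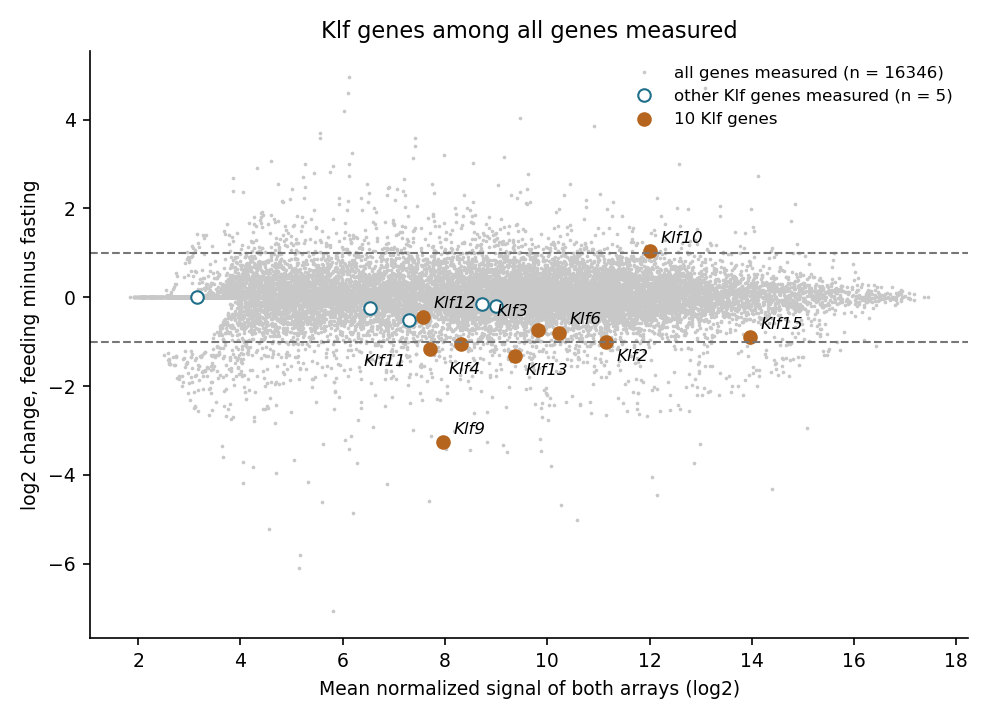
Log2 change, feeding minus fasting, against the mean log2 normalized signal for the 16346 genes measured, with dashed lines at 2-fold. Genes seen on 1 array are drawn at their lower bound, which is 0 for many dim genes, and Klf9 lies apart from the other members at -3.27.

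Of the other Klf genes on the array, Klf16 had a log2 change of -0.50, which is a larger decrease than that of Klf12, Klf1, the erythroid member, one of -0.23, Klf17 one of -0.19 and Klf7 one of -0.15. None of these was past 2-fold, and the normexp correction gave -0.29, -0.09, -0.17 and -0.15. Klf17 has a second probe, which did not stand above background on the arrays, so its probes disagree. Klf5 was well above background only upon feeding, which gives no lower bound above 0 for its change, and Klf8 and Klf14 were well above background on neither array. Klf18 was not analysed here.

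Signals that are known to control Klf genes were described with lists of other genes. Of 12 genes induced by glucocorticoids, all measured, 9 were at least 2-fold lower and 0 higher upon feeding, with a median of -1.38. With equal medians 6 were lower, and the median was -1.20. The largest decreases were those of Ddit4 (-3.73), Zbtb16 (-3.43) and Dusp1 (-2.09), and Zbtb16 changed by -2.33 under the normexp correction. Of 17 immediate early genes measured, 8 were at least 2-fold lower and 0 higher, with a median of -0.84, among them the nuclear receptor gene Nr4a1 (-2.46) and Fos (-2.05, and -1.44 under the normexp correction). Under the normexp correction 5 were lower and the median was -0.46. Dusp1 is on both lists. By any amount, 11 of the glucocorticoid-induced genes were lower and 1 was higher, Lcn2 (0.14). Of the immediate early genes, 14 were lower by any amount and 2 were higher, Egr1 (0.75) and Atf3 (0.50). On the same 2 arrays Klf9, Klf11, Klf13, Klf2 and Klf4 were at least 2-fold lower, and Klf10 was at least 2-fold higher (1.04). With 1 array per group no relation between these lists and the Klf genes can be tested.

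Clock genes did not share a direction. Of 19 measured, 3 were at least 2-fold lower and 4 at least 2-fold higher, with a median of -0.11, or 0.0 with equal medians, where 1 was lower. The period genes Per2 (2.36) and Per1 (-1.95) differed in opposite directions, and Bhlhe40, a clock repressor gene, was higher by 1.83. The times at which the livers were taken are not given in the sources used here. Of 9 hepatic genes induced by thyroid hormone, Klf9 included, 3 were at least 2-fold higher and 2 lower. Without Klf9 the list held 8 genes with a median of 0.26, 3 of them at least 2-fold higher, with Fasn, the fatty acid synthase gene, at 3.02 (2.24 under the normexp correction) and Thrsp at 2.05, and 1 lower, G6pc. Klf9 differed in the direction opposite to Thrsp, Fasn and Gpd2 (1.20) and in the same direction as G6pc (-1.77). Of the other genes of the list, Cyp7a1 differed by 0.27 and Me1 by 0.26, or 0.05 as the mean of its probes. Dio1 differed by -0.13, or 0.07 with equal medians, and Hr by -0.19. A part of thyroid hormone in these changes was not tested.

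**Figure D4:**
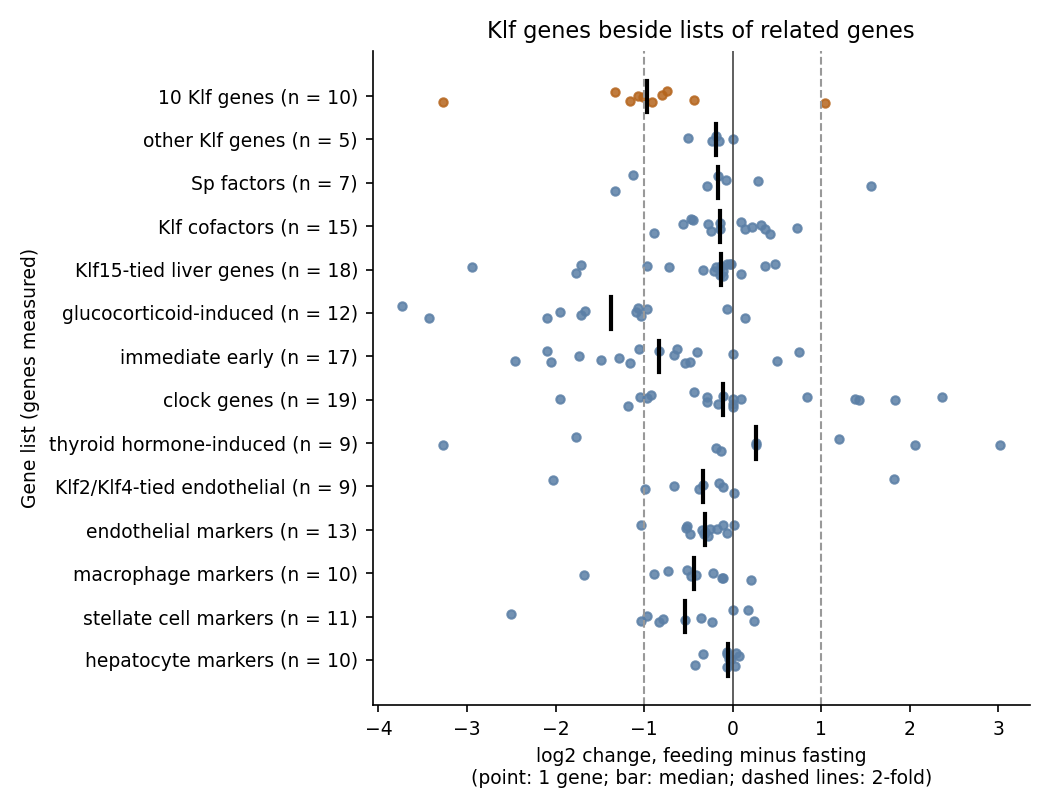
Log2 change of each gene, feeding minus fasting, for the 10 Klf genes and 13 lists of related genes, with a bar at the median of each list and dashed lines at 2-fold. The median of the 10 Klf genes (-0.96) lies between that of the glucocorticoid-induced genes (-1.38) and those of the immediate early genes (-0.84) and stellate cell markers (-0.54), and that of hepatocyte markers is -0.05.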

How the data were processed

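The deposited files are Agilent Feature Extraction 11.0.1.1 output of 2 single-colour (Cy3) arrays. The deposited values are intensities per spot, which the authors' software had corrected for background and not normalized between arrays. The value table of the series repeats the mean local background of each spot and was not used. Control and outlier spots were left out, log2 signals were averaged per probe and quantile normalized as in the study's methods, and of 39402 probes 27218 (69.1%) were matched to a gene through RefSeq transcripts of GRCm38.p6. The probe with the highest mean signal stood for a gene. A probe not well above background on 1 array gives a bound, set with the lowest signal that passed as well above background there. Where the probe's own signal was higher than that, the measured difference was used. The threshold was 2-fold. The number of arrays limits the precision. The alternatives tried were the 75th percentile or the median as the scale, normexp with an offset of 50 on the median signal (limma 3.58.1), the mean of a gene's probes, outlier spots kept, other filters and bounds, and thresholds of 1.5-fold and 3-fold. The procedure was tested on simulated data with less noise than the replicate spots show and no differences between mice or arrays. Named genes were the 10 members, the other Klf genes, defining cell markers and, from each of 17 lists, at most 3 genes with the largest change past 2-fold; values of other listed genes were chosen after they were seen. The members and the lists were chosen with earlier results of these data known. Some genes of the lists are not reported here.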

Additional observations from a re-analysis of the deposited data

How the results depend on the processing

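No paired analysis was possible because each group has 1 array, and leaving out a replicate was not possible for the same reason. At least 2-fold lower upon feeding were 5 of the 10 Klf genes, and 2 under the normexp correction, 8 at a threshold of 1.5-fold and 1 at a threshold of 3-fold. The 1 gene at least 2-fold higher, Klf10, became 0 at 3-fold. With the 75th percentile as the scale, 4 were lower, without Klf2, against 4.92% of all genes. The same 4 were lower with the median as the scale, against 3.97% of all genes. Keeping outlier spots, averaging probes, the filters on dim probes and measured differences in place of bounds left 5 lower and 1 higher. These alternatives could hardly move a member, since each has 1 probe, no outlier spot and signals well above background on both arrays. The 50 recomputed changes of single members include those with outlier spots kept and with averaged probes, which nearly repeat the main values. Of the 50, 50 kept their direction and 45 their side of 2-fold. The exceptions were Klf2 under 3 alternatives and Klf4 and Klf11 under the normexp correction. The largest move was that of Klf9, by 1.13 to -2.13 under the normexp correction. Naming probes by a gene name column was planned and not run, since the array files used here hold no such column.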

Other observations

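Genes for proteins that work beside the Kruppel-like factors had small median changes as groups. Of 15 corepressor and coactivator genes that were listed, all were measured and none was past 2-fold. Their median was -0.14, and with the mean of a gene's probes it was 0.09. Ep300, a histone acetyltransferase gene, had a log2 change of -0.89. The median of the 7 Sp factors measured was -0.16. Of these, 2 were at least 2-fold lower and 1 higher, against 4.62% and 3.27% of all genes. None was past 2-fold under the normexp correction. Sp5 was at least 2-fold higher (1.56, and 0.95 under the normexp correction), and the dim Sp6 (-1.32) and Sp8 (-1.13) were at least 2-fold lower but changed by -0.29 and -0.11 under that correction.

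Markers of the remaining cell types had medians near 0. Cholangiocyte markers had a median of 0.12 over 6 genes, 2 of them below 0 and 4 above. Sox9 was higher by 2.11, while Krt19 differed by -0.31 and Spp1 by -0.46. Lymphocyte and neutrophil markers had a median of -0.03 over 11 genes, 6 of them below 0 and 4 above. The dim Ms4a1 was higher by 1.21, or by 0.21 under the normexp correction, while Ptprc differed by -0.49. Red blood cell markers had a median of -0.03 over 4 genes. Pancreas markers had a median of 0.11 over 5 genes, with Prss2 seen only upon feeding and higher by at least 1.35, or by 0.42 under the normexp correction.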
